A study of Mus musculus with 70 samples.

Results

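The 35 genes described here are those of microglia and macrophages, the resident and infiltrating phagocytes of the brain. They were taken by symbol from 2 tables of read counts from bulk RNA of mouse medulloblastomas of the Sonic hedgehog type, cerebellar tumours that arise from granule neuron progenitors. All 35 were found in both tables, out of 53379 features in the first table and 37954 in the second. By their usual role they fall into 4 classes. The homeostatic class (9 genes) marks resting microglia, the shared myeloid class (15 genes) is made by microglia and macrophages alike, the macrophage class (4 genes) is used to tell macrophages of the brain's borders and blood from microglia, and the activation class (7 genes) rises in microglia around damage.

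The first table holds tumours in which Math1-Cre, a recombinase expressed in granule neuron progenitors, switches on SmoM2, a Smoothened protein that signals without Hedgehog ligand. Of these, 3 were labelled Kcnb2 knockout and 7 Kcnb2 wild-type. The second table holds Lazy Piggy tumours, which all share a Ptch1 allele that the labels do not detail, a Nestin-driven SB100 transposase with luciferase, Nestin-Cre, a Rosa26 lox-stop-lox allele of the tamoxifen-dependent transposase PBERT2, and the transposon. Nestin, like Math1, is a driver of neural progenitors and not of myeloid cells, but the labels do not say in which cells Kcnb2 is lost. There 29 tumours were labelled as given tamoxifen, 30 as not given it, and 1 library had no treatment label. The labels give no age, sex, dose or time for these tumours. The tumours are whole tissue, so fewer cells of a type and less RNA per cell cannot be told apart in any value below.

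Microglia settle in the brain before birth and live there on signals through the receptor encoded by Csf1r, whose ligands are the products of Csf1 and Il34. In resting tissue they carry the purinergic receptors P2ry12 and P2ry13 and the fractalkine receptor Cx3cr1, and when they meet damage or a tumour they tend to lower these and raise genes such as Spp1 and Gpnmb. Macrophages that enter from blood or sit at the brain's borders make Csf1r, complement C1q and CD45 (Ptprc) as well, which is why those genes do not separate the cells.

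Some libraries need naming first. Values are normalised CPM, read counts scaled to a common library total within each table. Total counts were 32838448 to 39387125 in knockouts and 23923453 to 33959857 in wild-types, and 6256214 to 8470896 with tamoxifen and 5869618 to 8667344 without. Kcnb2 itself stood at 8.30 CPM in the library labelled wild-type replicate 3. That lay below the knockouts (10.8, 13.8 and 9.91 CPM) and below the other wild-types (22.5 to 50.5 CPM). The title of that library carries the knockout ending, while its genotype label and the name of its count column read wild-type. Its genotype was not settled, so the knockout values are given again without this library after the members. Tamoxifen replicate 14 had 4246 CPM summed over 8 oligodendrocyte markers and 4740 CPM over 5 Purkinje and interneuron markers, above every other tamoxifen tumour (at most 1954 and 1292 CPM). Its sum over 6 genes of granule neuron progenitors and their tumours, 870 CPM, was the lowest of the 29. That list, with Atoh1 and Gli1, summed to 1375 to 2052 CPM in knockouts, 1781 to 2545 in wild-types, 870 to 3532 with tamoxifen and 1625 to 3459 without, so the labelled tissue showed its defining markers in every group.

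White blood cells of other kinds were sparse. The 8 T and NK cell markers summed to 1.44 to 2.59 CPM in knockouts and 2.13 to 20.9 in wild-types, with Cd3d and Ncr1 at 0 in every knockout, and to 0.18 to 8.28 CPM with tamoxifen and 1.65 to 9.88 without. The 4 B cell markers stayed at or below 4.15 CPM in all 4 groups. The 6 neutrophil markers reached at most 0.72 CPM in knockouts and 13.9 in wild-types, and 4.64 with tamoxifen and 8.32 without. Red cell genes were not sparse, with 3 markers at 43.6 to 89.0 CPM in knockouts and 4.68 to 93.4 in wild-types, and at 1.29 to 218 CPM with tamoxifen and 3.23 to 195 without. The 15 shared myeloid genes summed to 272 to 448 CPM in knockouts and 279 to 1065 in wild-types, and to 208 to 951 CPM with tamoxifen and 281 to 719 without.

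Within the tumours the order of levels per kilobase of gene length was much alike. Ctsd, a lysosomal protease, came first in every group, with means of 114 CPM per kilobase in knockouts, 135 in wild-types, 398 with tamoxifen and 396 without. Ctsd, Lyz2 (lysozyme) and Cd9 (a tetraspanin) held the first 3 places in each group, and the complement genes C1qa and C1qb followed. Cd9, Ctsd, Lpl and Sall1 are also made by cells outside the myeloid line, so their high level is not a level of microglia alone. At the other end, Ptprc stood at 0.14 CPM per kilobase in knockouts and 0.42 in wild-types, and at 0.38 with tamoxifen and 0.37 without. Cd163, a scavenger receptor for haemoglobin, was lowest in the Lazy Piggy tumours, with 0.29 CPM per kilobase with tamoxifen and 0.12 without.

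The knockout comparison asked how tumours without the potassium channel subunit Kcnb2 differ from those with it. All knockouts and wild-type replicates 1 to 3 have titles that start with a number, and this form was a covariate. Each log2 fold change therefore compares the 3 knockouts with those 3 wild-types, while the ranges and medians given below cover all 7. Among the 35 members, the macrophage genes Mrc1 and Ms4a7 had the largest differences, both on the low side, while the microglial receptors P2ry12, Cx3cr1 and Gpr34 differed by 0.05 or less on the log2 scale. No member passed the threshold in edgeR's quasi-likelihood test (adjusted p of 0.05 over 19864 genes), nor did any gene, so 0% of all genes were called. At an unadjusted p of 0.05 in edgeR, 4 members were lower and none higher, against 3.99% of all genes lower, 4.48% higher and 8.47% in either direction. Of the 35, 29 had a negative and 6 a positive log2 fold change, against 49.8% and 50.2% of all genes, with a median of -0.36 beside 0.00 for all genes. The median was -1.45 in the macrophage class, -0.42 in the activation class, -0.34 in the shared myeloid class and -0.21 in the homeostatic class. In no member did all knockouts lie below or above every wild-type, which 2.79% and 1.67% of all genes did.

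Mrc1, the mannose receptor of border macrophages, had 2.11, 3.09 and 2.19 CPM in knockout replicates 1 to 3, against a lowest of 2.33, a median of 12.9 and a highest of 29.8 CPM in wild-types. The groups met at a single library, wild-type replicate 1, and the other 6 wild-types lay at 8.33 CPM or more. Its log2 fold change was -2.30 ± 0.70 (SE; adjusted p = 0.566 in edgeR). Ms4a7, a membrane protein of the same cells, had 2.02, 0.99 and 2.24 CPM in knockouts, against 1.35 to 11.4 CPM in wild-types with a median of 6.80. Here too wild-type replicate 1 was the low one, and the log2 fold change was -1.97 ± 0.69 (SE; adjusted p = 0.566 in edgeR). Lyz2 had 59.7, 47.5 and 93.0 CPM in knockouts, against 77.6 to 259 CPM in wild-types, a log2 fold change of -0.94 ± 0.46 (SE; adjusted p = 0.566 in edgeR). Cd163 differed least of the 4, at -0.31 ± 0.36 (SE).

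Olfml3 and Fcrls, of the homeostatic class, went with the macrophage genes and not with the purinergic receptors. Olfml3, a secreted matrix protein, had 5.15, 3.90 and 2.82 CPM in knockouts, against 2.48 to 40.9 CPM in wild-types with a median of 20.4. Fcrls, a receptor-like protein of mouse microglia, had 25.4, 15.8 and 16.9 CPM in knockouts, against 14.5 to 83.5 CPM in wild-types with a median of 50.4. In both genes wild-type replicate 1 was the lowest library of all 10, and the other 6 wild-types lay above every knockout. The log2 fold changes were -1.75 ± 0.64 for Olfml3 and -1.10 ± 0.46 for Fcrls (SE; adjusted p = 0.566 for both in edgeR).

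P2ry12, the ADP receptor that steers microglial processes toward injury, gave another picture, with 18.1, 9.46 and 15.3 CPM in knockouts, against 8.71 to 27.4 CPM in wild-types with a median of 17.0. Cx3cr1 had 43.9, 29.0 and 50.1 CPM in knockouts, against 26.6 to 112 CPM in wild-types with a median of 46.6. Knockouts lay inside the wild-type range in both genes, and the log2 fold changes were -0.02 ± 0.41 and 0.01 ± 0.42 (SE). With SEs of that size, differences as large as the SE were not detectable in either direction. Gpr34, a receptor for lysophosphatidylserine, stood at 0.05 ± 0.46 and Siglech, a sialic acid-binding lectin, at 0.67 ± 0.60 (SE). Tmem119, a microglial surface protein, had -0.21 ± 0.52, and Sall1, a transcription factor of microglial identity that neural progenitors also make, had -0.60 ± 0.46 (SE).

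**Figure D1:**
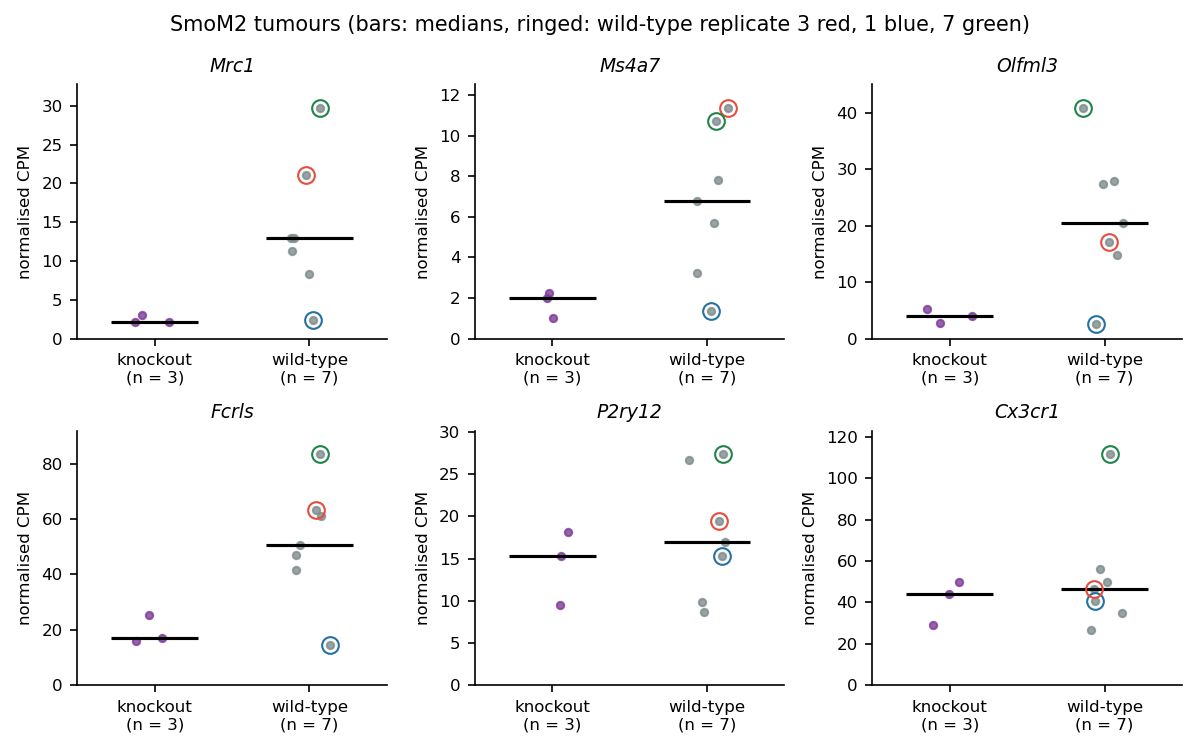
Normalised CPM (y axis, from 0) of 6 members in SmoM2 tumours, knockout left and wild-type right, with a point per tumour and a bar at the median. In Mrc1, Ms4a7, Olfml3 and Fcrls wild-type replicate 1 (blue ring) lies with the knockouts while the library labelled wild-type replicate 3 (red ring) does not, and in P2ry12 and Cx3cr1 the groups share their range.

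In the activation class Spp1 (osteopontin) had 8.21, 4.66 and 1.68 CPM in knockouts, against 5.63 to 51.9 CPM in wild-types, and a log2 fold change of -1.15 ± 0.74 (SE; adjusted p = 0.607 in edgeR). Gpnmb, a lysosomal glycoprotein, had 17.8, 27.0 and 21.8 CPM in knockouts, against 11.7 to 115 CPM in wild-types, and -1.06 ± 0.61 (SE; adjusted p = 0.580 in edgeR). The groups overlapped in both. The other 5 ran from -0.63 for Itgax to 0.10 for Cst7. In the shared myeloid class the differences were smaller, from -0.999 ± 0.598 for Ptprc to 0.28 ± 0.45 for Laptm5 (SE), and Csf1r itself had 46.1, 32.4 and 46.4 CPM in knockouts, against 36.5 to 143 CPM in wild-types, at -0.55 ± 0.42 (SE; adjusted p = 0.652 in edgeR). Wild-type replicate 7 was the highest library of the 10 in most members.

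The further lists of these cells held no called gene. Of 12 further genes of border macrophages and monocytes, 10 were tested, 9 were negative, with a median of -0.68, and none passed the threshold. At an unadjusted p of 0.05 in edgeR 3 were lower, Ms4a6c (-2.33 ± 0.79), Ms4a4a (-1.92 ± 0.62) and the scavenger receptor Stab1 (-1.27 ± 0.45, SE). F13a1 (-1.08 ± 0.63) and Pf4 (-0.998 ± 0.579, SE) lay on the same side. Smaller differences were found for Folr2 (-0.01 ± 0.49), Lyve1 (-0.05 ± 0.75), Cbr2 (-0.28 ± 0.96), Ccr2 (-0.35 ± 1.20) and Clec10a (0.16 ± 0.61, SE). SEs of this size do not set these apart from the others. Of 12 further microglia genes 10 were negative, with a median of -0.35, of 15 tested further activation genes 12 were, with a median of -0.32, and of 11 myeloid transcription and TGF-beta pathway genes 6 were negative, with a median of -0.20. Spi1, which encodes the myeloid master factor PU.1, stood at 0.08 ± 0.54 (SE). Among 11 tested growth and recruiting ligands the median was 0.06, Csf1 stood at 0.06 ± 0.53 and the neuronal ligand of Cx3cr1, Cx3cl1, at 1.76 ± 0.68 (SE; adjusted p = 0.566 in edgeR).

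Markers of other cells also differed in level. The 7 pericyte and fibroblast markers summed to 144 to 218 CPM in knockouts, against 234 to 383 CPM in wild-types, and all 7 had a negative log2 fold change, 3 of them at an unadjusted p under 0.05 in edgeR. The 8 oligodendrocyte markers summed to 924 to 4694 CPM in knockouts, against 151 to 3339 CPM in wild-types, and all 8 were positive. None of either list passed the threshold, and their part in the myeloid values was not tested.

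The macrophage values turned on single libraries. When the library labelled wild-type replicate 3 was left out, 25 of 35 members were negative, the median was -0.17, and Mrc1 alone kept an unadjusted p under 0.05 in edgeR, at -1.64 ± 0.69 (SE), against 4.88% of all genes in either direction. The class medians were then -1.07 for macrophage, -0.14 for activation, -0.16 for shared myeloid and -0.03 for homeostatic genes. Ms4a7 stood at -1.40 ± 0.70, Lyz2 at -0.74 ± 0.51, Olfml3 at -1.55 ± 0.70 and Fcrls at -0.68 ± 0.45 (SE). Spp1 stood at -0.81 ± 0.82, Gpnmb at -0.98 ± 0.70, Csf1r at -0.31 ± 0.46 and Ptprc at -0.63 ± 0.65 (SE). Itgax turned to 0.47 ± 0.86, P2ry12 to 0.24 ± 0.46, Ly86 to 0.05 ± 0.62 and Fcgr3 to 0.02 ± 0.61 (SE), all on the positive side. The other members kept their sign. Of the further lists, the median was -0.56 for border macrophages and monocytes (8 of 10 negative), -0.21 for microglia, -0.17 for activation and -0.04 for myeloid factors, and the pericyte and fibroblast sum still began at 234 CPM in the wild-types left. All 8 oligodendrocyte markers stayed positive, with a median of 2.75 in place of 1.65, and 2 had an unadjusted p under 0.05 in edgeR.

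Other libraries moved the count as well. Without knockout replicate 2, 1 member was lower at an unadjusted p under 0.05 in edgeR and without wild-type replicate 2, 2 were, where 3.14% and 2.95% of all genes passed in either direction. Without wild-type replicate 1, 6 members were (15.7% of all genes in either direction), with Mrc1 at -2.78 ± 0.50 and Olfml3 at -2.25 ± 0.39 (SE; adjusted p = 0.270 for both in edgeR), and without wild-type replicate 7, 7 were (8.18%). Without the covariate for the form of the title, 8 were lower and 33 negative, where 20.2% of all genes passed in either direction.

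The tamoxifen comparison asked what differed in tumours of mice given tamoxifen, the drug that activates PBERT2. P2ry12 rose, 1.63-fold, and it was the 1 member of 33 tested that passed the threshold in edgeR, in a comparison in which 3.65% of all 13735 genes did (3.06% higher and 0.59% lower). Most others lay on the high side by small amounts, and the macrophage genes Lyz2 and Ms4a7 lay on the low side. Of the 33, 28 had a positive and 5 a negative log2 fold change, against 45.9% and 54.1% of all genes, with a median of 0.12 beside -0.01 for all genes. At an unadjusted p of 0.05 in edgeR 8 were higher and 1 lower, against 11.6% and 7.91% of all genes, or 19.5% in either direction. The median was 0.24 in the homeostatic class, 0.12 in the shared myeloid class, 0.21 in the activation class and -0.26 in the macrophage class.

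P2ry12 had a lowest of 4.17, a median of 15.0 and a highest of 34.8 CPM with tamoxifen, against 2.89, 6.90 and 17.9 CPM without, from medians of 107 and 51 reads. The groups overlapped widely, but 23 of 29 tumours given tamoxifen lay above the median of the others. The log2 fold change was 0.71 ± 0.20 (SE; adjusted p = 0.0324 in edgeR). Exons of P2ry12 overlap Med12l on the opposite strand, and the use of strand in counting is not given in the sources used here, so reads of the 2 cannot be told apart for certain. Med12l averaged 76.5 ± 12.8 CPM with tamoxifen and 75.3 ± 14.8 CPM without it (SDs over 29 and 30 tumours), a log2 fold change of 0.02 ± 0.07 (SE).

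This call hung on few tumours. Without tamoxifen replicate 14 the log2 fold change was 0.69 (adjusted p = 0.0678 in edgeR), without replicate 19 it was 0.67 (adjusted p = 0.0516) and without replicate 20 it was 0.63 (adjusted p = 0.0599). Tumour titles hold dates, and by these the tumours were divided at a fixed date into an earlier and a later period. In the earlier titles P2ry12 averaged 15.3 CPM with tamoxifen (n = 14) and 10.8 without (n = 10), a log2 fold change of 0.51 ± 0.33 (SE; adjusted p = 0.553 in edgeR). In the later titles it averaged 13.7 CPM with tamoxifen (n = 15) and 7.89 without (n = 20), a log2 fold change of 0.79 ± 0.24 (SE; adjusted p = 0.182 in edgeR). Some tumours share a title date, 13 tumours over 6 dates, though the labels do not say what a shared date means. In those alone, with the date as a block, a fit chosen after the data were seen, P2ry12 turned to -0.97 ± 0.56 (SE; adjusted p = 0.763 in edgeR). In that fit the comparison lies within the 2 dates that hold both groups, 5 tumours. A test of the difference between periods passed for no member and no gene of 14450 in edgeR, with 502 genes at an unadjusted p under 0.05.

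Markers of oligodendrocytes rose in the same comparison, 8 of 8, as did 5 of 5 Purkinje and interneuron markers and 4 of 6 astrocyte markers. The oligodendrocyte sum ran from 105 to 4246 CPM with tamoxifen, median 401, and from 111 to 768 CPM without, median 160. With the tumour's log2 CPM of Mbp, a myelin gene, as a covariate, chosen after the data were seen, the log2 fold change of P2ry12 was 0.47 ± 0.19 (SE; adjusted p = 0.399 in edgeR) and no member passed.

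The next members by p did not pass. Gpr34 had 4.02 to 32.5 CPM with tamoxifen, median 11.5, against 2.63 to 18.0 CPM without, median 8.42, a log2 fold change of 0.54 ± 0.17 (SE; adjusted p = 0.0658 in edgeR). Ly86, the partner of the toll-like receptor homologue CD180, had 3.72 to 28.5 CPM with tamoxifen, median 6.80, against 1.94 to 11.9 CPM without, median 4.62, a log2 fold change of 0.55 ± 0.18 (SE; adjusted p = 0.0723 in edgeR). In both, over 20 of the 29 tumours given tamoxifen lay above the median of the others. Csf1r had 15.0 to 87.6 CPM with tamoxifen, median 48.3, against 23.2 to 62.5 CPM without, median 33.4, a log2 fold change of 0.31 ± 0.12 (SE; adjusted p = 0.134 in edgeR). Among the other homeostatic genes Cx3cr1 stood at 0.27 ± 0.18, Tmem119 at 0.26 ± 0.14 and P2ry13 at 0.23 ± 0.15, and Sall1, Fcrls and Olfml3 lay between -0.13 and 0.09.

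In the macrophage class none passed, and the 4 genes did not go together. Ms4a7 had 0.36 to 19.9 CPM with tamoxifen, median 8.69, against 6.34 to 20.4 CPM without, median 11.3, a log2 fold change of -0.43 ± 0.17 (SE; adjusted p = 0.138 in edgeR). Tamoxifen replicate 14 was the lowest tumour, and without it the value was -0.39 ± 0.15 (SE; adjusted p = 0.169 in edgeR). Lyz2 had 57.9 to 568 CPM with tamoxifen, median 201, against 145 to 393 CPM without, median 244, a log2 fold change of -0.26 ± 0.14 (SE; adjusted p = 0.313 in edgeR). Mrc1 stood at -0.06 ± 0.23 (SE).

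Siglech and Cd163 did not pass the filter on low counts and have no value in the fit above, with medians of 7 and 10 reads with tamoxifen and 2 and 3 reads without. Cd163 had 0 to 5.13 CPM with tamoxifen, median 1.47, against 0 to 2.15 CPM without, median 0.51. Siglech had 0 to 7.08 CPM with tamoxifen, median 0.97, against 0 to 3.64 CPM without, median 0.32. In DESeq2, which kept them, Cd163 (1.25 ± 0.33, SE; adjusted p = 0.00946) and Siglech (1.30 ± 0.42, SE; adjusted p = 0.0401) passed, as did Gpr34 and Ly86. With no filter in edgeR Cd163 passed (1.22 ± 0.34, SE; adjusted p = 0.0380) and Siglech did not (adjusted p = 0.0869). With Mbp as a covariate neither passed in edgeR, at 1.12 ± 0.35 for Cd163 (adjusted p = 0.241) and 0.31 ± 0.31 for Siglech (SE; adjusted p = 0.776). Cd163 thus lay on the other side from Lyz2 and Ms4a7 within its class.

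**Figure D2:**
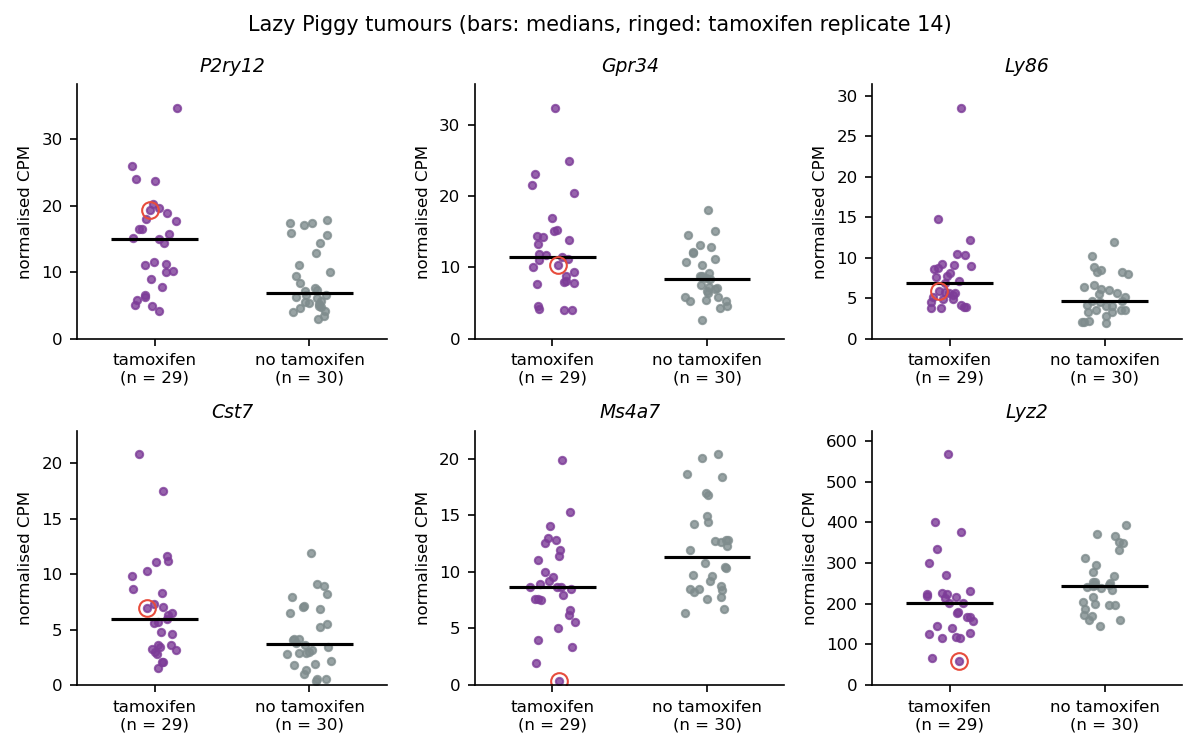
Normalised CPM (y axis, from 0) of 6 members in Lazy Piggy tumours, tamoxifen left and no tamoxifen right, with a point per tumour and a bar at the median. P2ry12 has a median of 15.0 CPM with tamoxifen and 6.90 without, the groups overlap in all 6 genes, and tamoxifen replicate 14 (ringed) is the lowest tumour in Ms4a7 and Lyz2.

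In the activation class all 7 log2 fold changes were positive and none passed. Cst7, the protease inhibitor cystatin F, had 1.5 to 20.8 CPM with tamoxifen, median 5.94, against 0.35 to 11.9 CPM without, median 3.70, a log2 fold change of 0.63 ± 0.25 (SE; adjusted p = 0.149 in edgeR). Gpnmb stood at 0.30 ± 0.18 and Itgax, the integrin CD11c, at 0.31 ± 0.26, while Spp1 (0.00 ± 0.28) and Ctsd (0.01 ± 0.09, SE) were level. In the shared myeloid class Itgam (CD11b) stood at 0.58 ± 0.26, Fcgr3 (an Fc receptor) at 0.28 ± 0.14 and Ctss (a lysosomal protease) at 0.27 ± 0.12. The complement genes C1qa, C1qb and C1qc lay between 0.09 and 0.19, and Cd68 at -0.05 ± 0.10 (SE). Aif1, Trem2, Tyrobp, Ptprc, Laptm5 and Fcer1g lay between 0.03 and 0.18.

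Among further microglia genes 2 of 9 tested rose in edgeR, the adhesion ligand Selplg (0.73 ± 0.16, adjusted p = 0.0113) and the phagocytic receptor Mertk (0.38 ± 0.12, SE; adjusted p = 0.0489), and none fell. Of 8 tested complement and Fc receptor genes the inhibitory receptor Fcgr2b rose (0.84 ± 0.22, SE; adjusted p = 0.0260 in edgeR). Of 12 further activation genes Apoe rose (0.38 ± 0.11, SE; adjusted p = 0.0379 in edgeR), which astrocytes make as well, and of 8 ligands Cx3cl1 rose (0.88 ± 0.22, SE; adjusted p = 0.0186 in edgeR). None of 11 myeloid factors and none of 5 tested genes of border macrophages passed. P2ry14, another purinergic receptor gene, rose by 0.47 ± 0.14 (SE; adjusted p = 0.0472 in edgeR).

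**Figure D3:**
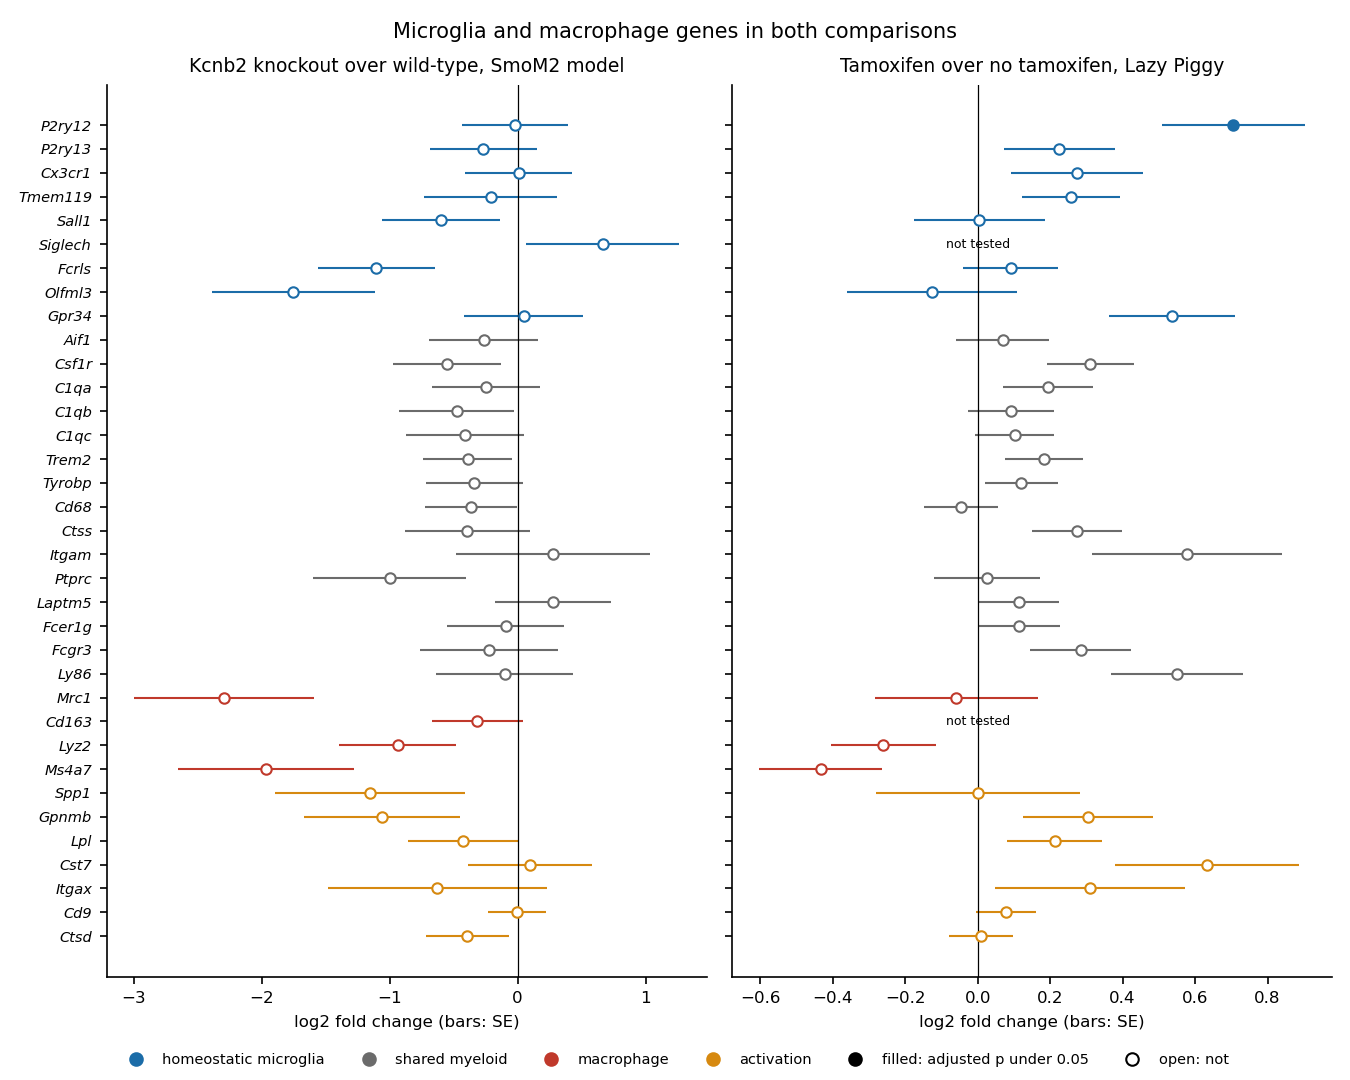
Log2 fold change (x axis, bars are SE) of all 35 members for knockout over wild-type (left) and of the 33 tested for tamoxifen over no tamoxifen (right), coloured by class. P2ry12 with tamoxifen, at 0.71, is the filled point that passed the threshold, and the macrophage genes Mrc1 (-2.30) and Ms4a7 (-1.97) lie lowest in the knockout.

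Setting the classes against each other within each tumour gave the same picture as a description. The score was the mean log2 CPM of the homeostatic genes minus that of the macrophage genes, in which levels are not per length, so only its shift between groups of a table can be read. It was 0.87 ± 0.42 in knockouts (SD, n = 3), from 0.62 to 1.36, and 0.11 ± 0.50 in wild-types (SD, n = 7), from -0.48 to 0.72. Wild-types other than the library labelled replicate 3 averaged 0.18 ± 0.50 (SD, n = 6). In Lazy Piggy tumours it was -0.08 ± 0.64 with tamoxifen and -0.47 ± 0.41 in those not given it (SDs over 29 and 30 tumours), and -0.13 ± 0.60 with tamoxifen when replicate 14 was left out. By title period it was -0.02 with tamoxifen and -0.42 without in the earlier titles, and -0.13 and -0.49 in the later ones. The score thus averaged higher in knockouts than in wild-types and higher with tamoxifen than without, and in both pairs the groups overlapped.

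Against the activation genes the shifts were smaller. Homeostatic minus activation was -0.90 ± 0.32 in knockouts and -1.004 ± 0.377 in wild-types (SD, n = 3 and 7), and -2.05 ± 0.44 with tamoxifen and -2.17 ± 0.41 in tumours not given it (SDs over 29 and 30 tumours). Both differences were well inside 1 SD, and without the library labelled replicate 3 the wild-types averaged -0.99 ± 0.41 (SD, n = 6). With only the members past the filter in both tables, homeostatic minus macrophage shifted by 0.94 between knockouts and wild-types in place of 0.76, and by 0.63 between tamoxifen and no tamoxifen in place of 0.39. Homeostatic minus activation then shifted by 0.01 in place of 0.11 and by 0.05 in place of 0.12.

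**Figure D4:**
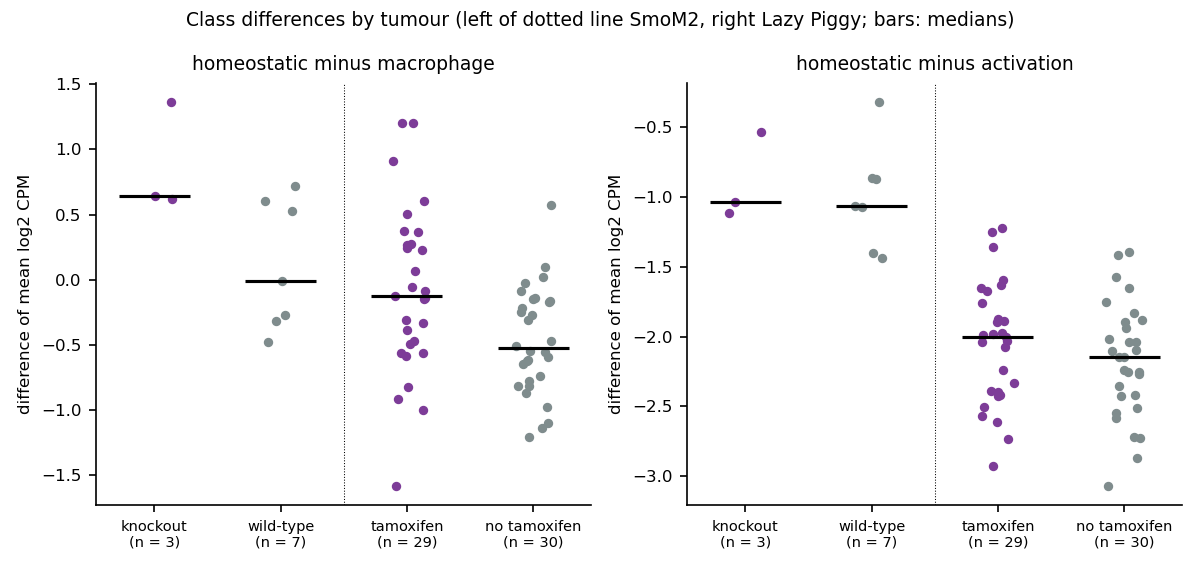
Difference of mean log2 CPM between classes (y axis) for each tumour, homeostatic minus macrophage on the left and homeostatic minus activation on the right, with bars at the median. Homeostatic minus macrophage has medians of 0.64 in knockouts and -0.01 in wild-types, and -0.13 with tamoxifen and -0.53 without, and the points of each pair of groups overlap.

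The models can be set side by side only loosely, since each is a table of its own and model and table cannot be told apart. Ctsd averaged 269 CPM in knockouts and 318 in wild-types, and 937 with tamoxifen and 930 without. Lyz2 averaged 66.7 CPM in knockouts and 138 in wild-types, and 209 with tamoxifen and 251 without. Spp1 averaged 4.85 CPM in knockouts and 17.9 in wild-types, and 36.1 both with and without tamoxifen. Siglech ran the other way, with 3.34 CPM in knockouts and 3.17 in wild-types, and 1.32 with tamoxifen and 0.54 without. Levels of Tyrobp and the C1q genes were nearer to each other across the tables. Tyrobp averaged 21.7 CPM in knockouts and 26.3 in wild-types, and 21.6 with tamoxifen and 19.9 without. P2ry12 averaged 14.3 CPM in knockouts and 17.8 in wild-types, and 14.5 with tamoxifen and 8.85 without.

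The 59 labelled Lazy Piggy tumours also show how the members vary among themselves. Their spread within groups was larger than that of most genes, with a median SD of log2 CPM of 0.71 in the homeostatic class, 0.49 in the shared myeloid class, 0.75 in the macrophage class and 0.78 in the activation class, against 0.34 for all genes tested. Low counts widen this measure. Spp1 (1.13), Itgam (1.06) and Cst7 (1.00) varied most and Cd9 (0.33) least. No member had a tumour standing far above the rest (over 2 on the log2 scale and 5 scaled median absolute deviations), which 1.41% of all genes had.

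Across tumours, many members varied with Csf1r. Of 32 other tested members 16 had a Pearson r with Csf1r above 0.5 in both groups, against 1.08% of 13734 genes, and 10 were among the 50 genes most like it. P2ry12 had an r of 0.757 with tamoxifen (rho 0.782, n = 29) and 0.691 without (rho 0.616, n = 30). In 100000 permutations p of r was 1e-05, the smallest they can give, with tamoxifen and 5e-05 without, or 0.00014 and 0.00042 after Benjamini-Hochberg adjustment over 226 relations. Leaving out the 2 tumours farthest in Csf1r gave 0.734 and 0.639, and within title periods r was 0.850 and 0.818 with tamoxifen and 0.769 and 0.694 without. Laptm5, a lysosomal protein of blood cells, had an r of 0.830 with tamoxifen and 0.726 without (rho 0.828 and 0.727, permutation p = 1e-05 and adjusted p = 0.00014 for each r). Without the 2 farthest tumours it had 0.747 and 0.691, and in earlier and later titles 0.915 and 0.644 with tamoxifen and 0.711 and 0.744 without.

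The myeloid factor gene Spi1 followed Csf1r as well, with r of 0.642 with tamoxifen and 0.617 without (rho 0.594 and 0.590, permutation p of r 0.00017 and 0.00024, adjusted 0.00096 and 0.0012). Without the 2 farthest tumours these were 0.560 and 0.575, and in earlier and later titles 0.735 and 0.511 with tamoxifen and 0.495 and 0.718 without. Of the 2 ligands, Csf1 had r of 0.677 and 0.567 (rho 0.745 and 0.485, permutation p of r 7e-05 and 0.00118, adjusted 0.00055 and 0.0044), or 0.773 and 0.513 without the 2 farthest tumours, and 0.684 and 0.730 with tamoxifen and 0.603 and 0.583 without in earlier and later titles. Il34 had r of -0.166 and 0.108 (rho -0.124 and 0.086, permutation p of r 0.387 and 0.567). By the lower r of both groups, the 10 genes outside the list most like Csf1r included Ptgs1, Pik3ap1, Mpeg1, Adgre1, Nckap1l, Cyth4, Selplg, Cd86 and Arsb, with r from 0.807 for Ptgs1 to 0.686 for Arsb, over 29 and 30 tumours. Cx3cr1 and P2ry12 stood 12 and 13 in the same ranking.

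Some members did not follow Csf1r. Ms4a7 had an r of 0.054 with tamoxifen and -0.036 without (rho -0.028 and -0.105, permutation p of r 0.767 and 0.849, adjusted 0.846 and 0.901), and Lyz2 had 0.304 and 0.096 (rho 0.231 and -0.026, permutation p of r 0.108 and 0.609). Lpl, lipoprotein lipase, had -0.354 and -0.331, of which neither passed (rho -0.400 and -0.092, permutation p of r 0.0594 and 0.0721, adjusted 0.111 and 0.130). Lyz2 and Ms4a7 instead went with each other, with r of 0.774 with tamoxifen and 0.689 without (rho 0.767 and 0.698, permutation p of r 1e-05 and 4e-05, adjusted 0.00014 and 0.00036). That relation had r of 0.676 and 0.645 without the 2 tumours farthest in Lyz2, and 0.707 and 0.867 with tamoxifen and 0.801 and 0.590 without in earlier and later titles. Without tamoxifen replicate 14 it was 0.726.

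Lyz2 and P2ry12, a macrophage and a microglia gene, had r of 0.020 with tamoxifen and -0.037 without (rho 0.038 and -0.081, permutation p of r 0.919 and 0.843, adjusted 0.936 and 0.899). They do not stand for their classes. With tamoxifen the homeostatic gene Fcrls had r of 0.725 with Lyz2 (permutation p of r 1e-05, adjusted 0.00014), and the macrophage gene Cd163 had 0.022. Median r with Lyz2 was 0.20 with tamoxifen and 0.13 without over 9 homeostatic genes. Over the 3 other macrophage genes it was 0.51 and 0.03. The median was highest over the 15 shared myeloid genes, at 0.57 and 0.49, and 12 and 7 of them had r above 0.5. Over 7 activation genes it was 0.37 and 0.13. C1qb went with both Lyz2 and Csf1r, at 0.675 and 0.643 with Lyz2 (rho 0.612 and 0.620, permutation p of r 9e-05 and 0.00011, adjusted 0.00068 and 0.00078) and 0.701 and 0.587 with Csf1r. Its r with Lyz2 was 0.560 and 0.609 without the 2 farthest tumours, and 0.672 and 0.719 with tamoxifen and 0.578 and 0.705 without in earlier and later titles. Over pairs of genes the median r was 0.70 with tamoxifen and 0.59 without inside the shared myeloid class, and 0.28 and 0.34 inside the homeostatic class.

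Siglech had the highest r of the members with Mbp, a gene of another cell. With Mbp it had r of 0.843 with tamoxifen and 0.792 without (rho 0.834 and 0.753, permutation p = 1e-05 and adjusted p = 0.00014 for each r), from the low read counts given above. The values were 0.781 and 0.695 without the 2 tumours farthest in Mbp, 0.833 and 0.852 in earlier and later titles with tamoxifen, and 0.660 and 0.848 without. P2ry12 had 0.419 and 0.458 with Mbp (rho 0.455 and 0.378, permutation p of r 0.0233 and 0.0113, adjusted 0.0511 and 0.0283), or 0.466 and 0.508 without the 2 farthest tumours, and 0.496 and 0.354 with tamoxifen and 0.628 and 0.428 without in earlier and later titles. Ms4a7 had -0.403 and -0.281 (rho -0.178 and -0.282, permutation p of r 0.029 and 0.132, adjusted 0.0601 and 0.216). With tamoxifen this rests on few tumours, since r was -0.031 without the 2 farthest and -0.094 without replicate 14.

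**Figure D5:**
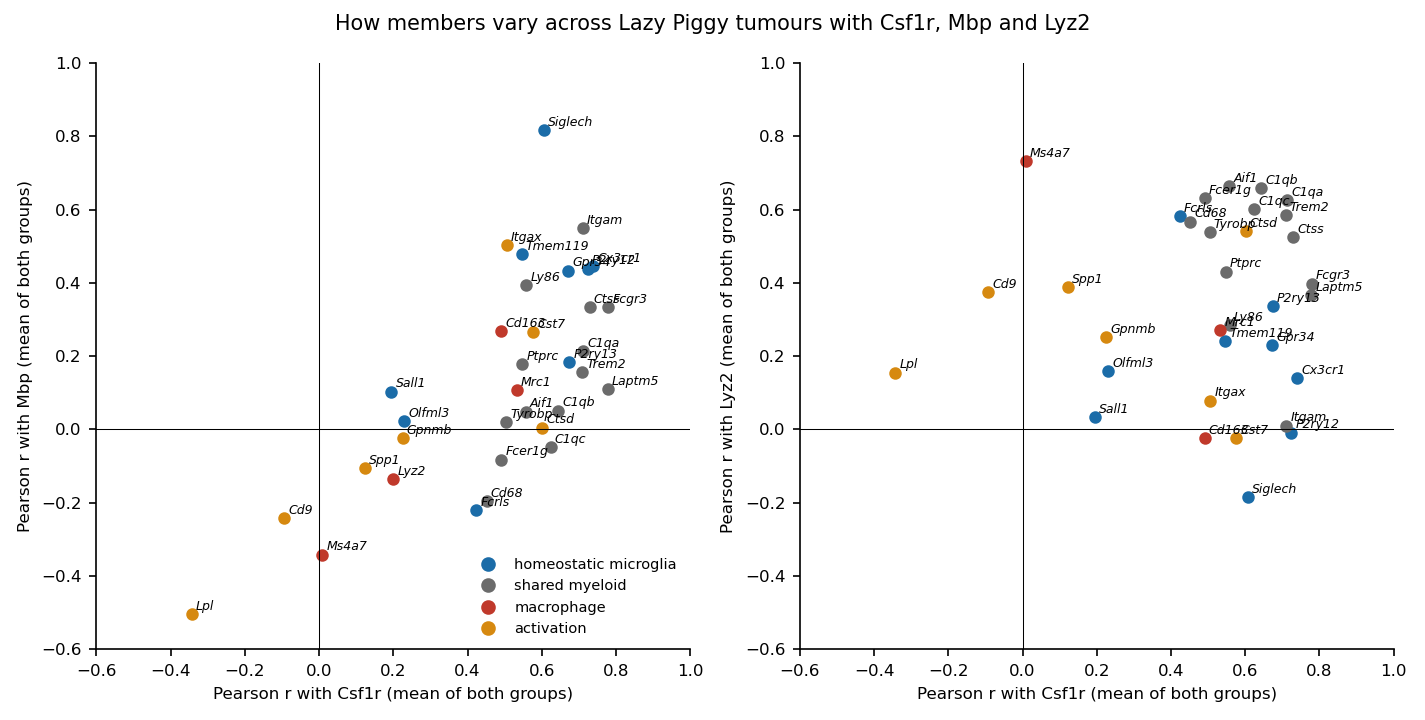
Pearson r of each member with Csf1r (x axis) against its r with Mbp (left) or Lyz2 (right), each the mean of the values in tamoxifen and no tamoxifen tumours, coloured by class. Siglech lies highest for Mbp, Lpl lies lowest for both Csf1r and Mbp, and Ms4a7 lies near 0 for Csf1r and highest for Lyz2.

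Members that vary together may be read beside their promoters. RefSeq windows (GRCm38.p6, 250 bases before to 50 after the start) were matched for 29 of 35 members, 35 windows in all. The purine-rich PU box, letters GAGGAA on either strand, a sequence that PU.1 is known to bind, was found in 17 of 35 windows (48.6%), against 28.3% of 32851 windows of all genes. It was in 11 of 14 windows of shared myeloid genes (78.6%), 3 of 9 of homeostatic genes (33.3%), 2 of 5 of macrophage genes (40.0%) and 1 of 7 of activation genes (14.3%). The longer GAGGAAGT, which contains it, was in 3 of 35 (8.57%) against 3.2% of all. The 250 bases before the start are shown for 3 shared myeloid genes with the box and for P2ry12 and Lyz2 without it, the genes at the ends of the relations above, with the box in capitals (TTCCTC is the box on the other strand).
C1qb (chr4:136886201-136886450, minus strand): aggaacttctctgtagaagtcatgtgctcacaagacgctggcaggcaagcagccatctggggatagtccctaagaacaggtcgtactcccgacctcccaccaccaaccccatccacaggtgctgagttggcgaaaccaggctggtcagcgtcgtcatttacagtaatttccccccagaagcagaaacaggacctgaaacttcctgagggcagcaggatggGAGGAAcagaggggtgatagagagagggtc
Trem2 (chr17:48346151-48346400, plus strand): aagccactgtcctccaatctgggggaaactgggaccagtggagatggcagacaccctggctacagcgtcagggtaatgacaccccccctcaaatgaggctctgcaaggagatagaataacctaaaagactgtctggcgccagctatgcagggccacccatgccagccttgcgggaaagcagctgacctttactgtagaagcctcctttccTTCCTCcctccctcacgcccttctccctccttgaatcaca
Itgam (chr7:128062390-128062639, plus strand): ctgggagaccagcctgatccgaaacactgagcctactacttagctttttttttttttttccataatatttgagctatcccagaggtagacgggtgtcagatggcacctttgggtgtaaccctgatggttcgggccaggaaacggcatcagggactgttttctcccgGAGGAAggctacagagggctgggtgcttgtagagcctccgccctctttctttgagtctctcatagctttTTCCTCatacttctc
P2ry12 (chr3:59262986-59263235, minus strand): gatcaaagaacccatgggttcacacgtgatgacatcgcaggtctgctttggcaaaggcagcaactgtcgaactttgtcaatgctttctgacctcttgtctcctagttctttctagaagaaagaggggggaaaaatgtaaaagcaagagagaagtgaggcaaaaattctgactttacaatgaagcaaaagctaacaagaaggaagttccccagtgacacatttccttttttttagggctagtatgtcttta
Lyz2 (chr10:117282273-117282522, minus strand): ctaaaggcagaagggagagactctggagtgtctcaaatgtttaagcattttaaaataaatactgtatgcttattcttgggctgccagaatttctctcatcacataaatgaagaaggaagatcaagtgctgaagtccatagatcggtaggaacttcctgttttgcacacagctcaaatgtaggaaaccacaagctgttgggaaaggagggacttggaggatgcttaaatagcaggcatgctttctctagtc
In C1qb the box begins 30 bases before the start and in Trem2, the lipid-sensing receptor that signals through Tyrobp, 40 bases before it, while Itgam has boxes 84 and 15 bases before it. P2ry12 followed Csf1r (r 0.757 and 0.691) with no such letters in its window, as Trem2 did (r 0.815 and 0.603) with them. The windows of P2ry12 and Lyz2 do hold the shorter run GGAA, so what they lack is GAGGAA alone. A match is a run of letters and not a measured site, and its absence says nothing of the factor.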

How the data were processed

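Bulk polyadenylated RNA was sequenced after TruSeq library preparation, per the labels' protocols. The authors deposited raw counts of reads for each gene, 1 table per model. The submitters' processing notes name STAR 2.5.4b and mm9. The counting program and strand setting were not given in the sources used here. Exon lengths came from GENCODE M21 and symbols from a table of Ensembl identifiers, which matched 53274 of 53379 features in the SmoM2 table and 32882 of 37964 in the Lazy Piggy table, where 10 construct features (0.00120% of reads) were left out.

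Groups came from the genotype and treatment labels. SmoM2 titles each carry a different number and some Lazy Piggy titles share a date. The labels do not say whether these mark mice, so p-values measure the spread between libraries, which may be technical. Genes were tested with edgeR 4.0.16 (quasi-likelihood, TMM, filterByExpr with a smallest count of 10, Benjamini-Hochberg at 0.05) in R 4.3.3 over all genes. Knockout had the form of the title (starting with a number or not) as a covariate, so its contrast lies within 6 libraries. SE is the log2 fold change divided by the square root of F. Log2 CPM used a prior count of 2. Scripts were tested on simulated data. Alternatives were DESeq2 1.42.0, its size factors, no filter, other covariates and left-out libraries. Named are members past the threshold, the 2 of smallest p per class, up to 4 called genes per other list, and others chosen after their values were seen. Members and lists were chosen with earlier results of these data known. A gene that the rule names is not reported here.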

Additional observations from a re-analysis of the deposited data

Results flagged for a closer look

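In SmoM2 wild-types, a sample lay far from the other 6 by Dixon's ratio (gap over range, above its 95% critical value for 7 samples) in 5 of 42 sets of log2 values. A single set passes by chance about 1 time in 20. The sets share the same 7 samples and some share genes, so they are not independent and 5 of 42 does not measure an excess. Ratios are on log2 CPM. On CPM itself 18 of 36 genes passed, all with wild-type replicate 7 as the high one, against 2 high and 2 low on log2 CPM, so the count depends on the scale. Wild-type replicate 7 was the high one for P2ry13 (15.2 CPM, ratio 0.665), Cst7 (13.0 CPM, ratio 0.608) and the activation score (mean log2 CPM 6.04, ratio 0.581). Wild-type replicate 1 was the low one for Fcrls (14.5 CPM, ratio 0.599) and Olfml3 (2.48 CPM, ratio 0.633).

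The Lazy Piggy library with no treatment label entered no comparison. Its title has an ending that no other Lazy Piggy title carries. The sum over granule neuron progenitor and tumour genes was not taken for it, so whether it is tumour tissue was not tested. By plain totals, 9 of 35 members lay above every tumour without tamoxifen and 16 below. How many of all genes did so was not counted, so these counts cannot be read as particular to the members. Of the 9 homeostatic genes 6 lay above and 1 below, of 15 shared myeloid genes 2 above and 7 below, of 4 macrophage genes 0 above and 2 below, and of 7 activation genes 1 above and 6 below. P2ry12 had 50.3 CPM there, against at most 17.8 CPM, P2ry13 18.7 against 11.3, Cx3cr1 72.8 against 55.1 and Gpr34 22.0 against 17.8. Tmem119 had 20.8 CPM against at most 7.40, Siglech 18.7 against 3.56, Csf1r 79.0 against 61.2, Itgam 25.4 against 19.6 and Lpl 61.7 against 45.4. Tumours given tamoxifen reached 87.6 normalised CPM for Csf1r, 66.2 for Lpl and 32.5 for Gpr34, so these were not beyond the labelled tumours. They stayed below the unlabelled library for P2ry12 (at most 34.8), P2ry13 (16.0), Cx3cr1 (60.2), Tmem119 (10.9), Siglech (7.08) and Itgam (16.3). On the low side Lyz2 had 4.63 CPM against at least 147 CPM without tamoxifen, Ms4a7 0.26 against 6.32, Gpnmb 1.85 against 7.00, Cd9 34.1 against 153 and Ctsd 318 against 565.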

How the results depend on the processing

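No member was called for knockout under any alternative run (0 in edgeR with either normalization, filter or title covariate, with numbered titles only, and 0 in DESeq2, which called 4 genes higher and 5 lower). Leaving out each library in turn gave 0 each time. For tamoxifen, 1 member was called, and 1 with DESeq2's size factors, 5 in DESeq2, 2 with no filter, 2 with title period as a covariate, 0 in earlier titles, 0 in later titles 0 with Mbp as a covariate and 0 with the title date as a block, the last 2 chosen after seeing the data. Leaving out each tumour gave 0 to 3. Over all genes, tamoxifen called 420 higher and 81 lower, against 749 and 145 in DESeq2, 12 and 3 with Mbp, 0 and 0 in earlier titles, 2 and 0 in later ones, and 110 to 682 and 28 to 131 when each tumour was left out. With only members past the filter in both tables, homeostatic minus macrophage was -0.66 with tamoxifen and -1.29 without, and homeostatic minus activation -1.66 and -1.70, since Siglech and Cd163 leave the classes. In the 13 tumours that share a title date, with the date as a block (6 residual degrees of freedom), 5 named members changed direction: P2ry12 (-0.97), Gpr34 (-0.10), Csf1r (-0.17), Cst7 (-0.12) and Lyz2 (0.22). The cause was not tested. Under the other alternatives none of the 2 members of smallest p per class changed direction in its comparison. Itgax, P2ry12, Ly86 and Fcgr3, not among these for knockout, turned positive there without the library labelled wild-type replicate 3. No paired analysis was possible because the titles carry no replicate numbers that pair the groups, and a shared date is not stated to pair tumours. At these depths Siglech, Cd163 and Itgax rest on few reads in Lazy Piggy tumours, with group medians of 2 to 17 reads. Medians with and without tamoxifen were 34 and 29 reads for Tmem119 and 43 and 28 for Cst7. Ms4a7 had 65 and 85, but 2 reads in tamoxifen replicate 14.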
